A study of Macaca mulatta with 34 samples.

Results

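Interferon-stimulated genes were followed in deep cerebellar nuclei (DCN), which carry the output of the cerebellum, from rhesus macaques given adeno-associated virus (AAV) vectors with RNA interference cargo. The members are a set of 41 gene symbols, of which 38 have a row among the 34847 Ensembl gene identifiers counted in each of 22 DCN libraries. GBP1, GBP2 and PLSCR1 could not be paired with an identifier and were not analysed here. The members were listed by name and not by a threshold, with earlier results of these data known. The 38 with a row passed the low-count filter of every comparison that used all its libraries. Some passed it only through a group in which they were high, so passing is no result about the members.

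In Study 1, 4 libraries came from macaques given vehicle and 6 from macaques given AAV.miS1, an rAAV2/1 vector that encodes the artificial microRNA miS1. Study 2 has 4 groups with 3 libraries each: an empty capsid without cargo, intmiS1, which is another configuration of the miS1 construct, StufferOnly, which carries filler sequence, and miSCA7Stuffer, which carries the miSCA7 construct with filler. Each animal, controls included, received its injection into the DCN under magnetic resonance guidance, and identifiers in the labels name a different animal for each library. Study 1 asked what caused the toxicity seen with AAV.miS1, and Study 2 characterised the immune response to each redesigned construct. The labels give no dose, promoter, age or interval to necropsy.

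Type I interferons bind the receptor pair IFNAR1 and IFNAR2, and the kinases JAK1 and TYK2 then pass the signal on by phosphorylation. STAT2 and IRF9 are parts of the factor ISGF3, which enters the nucleus and switches on the interferon-stimulated genes. Their products degrade or bind foreign RNA, block viral entry and assembly, attach the ubiquitin-like protein ISG15 to other proteins, or feed back on the pathway. In brain, microglia, astrocytes, endothelium and neurons can each express these genes, and so can infiltrating leukocytes.

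Depth differed between the studies. Study 1 libraries held 2049685 to 4810852 counts in genes, apart from vehicle replicate 2 with 87741, where 1 read is worth 10.4 CPM (a gene's count per 1e6 counts of its library, with the library total scaled by the TMM method; levels are given in this unit). Study 2 libraries counted with featureCounts held 20978241 to 39792653, and intmiS1 replicates 1 and 2, counted with STAR, held 5169866 and 4858179. Study 1 also split by its share of unmapped reads: vehicle replicate 1 and AAV.miS1 replicates 1 to 4 lay under 15%, and vehicle replicates 2 to 4 and AAV.miS1 replicates 5 and 6 lay over it. In Study 2, intmiS1 replicate 3 and the 9 libraries of the other groups share one counting program, and the other 2 intmiS1 libraries do not.

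The median member lay above its control level in each AAV.miS1 and StufferOnly library and in 2 of 3 miSCA7Stuffer libraries, and close to it in the intmiS1 libraries. As a summary of a library, each member's level was set against the mean of that study's control group as a log2 ratio with 1 CPM added, and the median over the 38 members was taken. This median ratio was 2.61, 3.21, 1.41, 2.36, 0.63 and 2.07 in AAV.miS1 replicates 1 to 6, against −0.18, −0.49, 0.16 and 0.27 in the vehicle libraries. In StufferOnly it was 1.08, 1.67 and 1.57, against −0.03, −0.08 and 0.10 in the empty capsid libraries. In miSCA7Stuffer it was −0.31, 1.14 and 1.79, and in intmiS1 0.01, 0.12 and −0.02. AAV.miS1 replicate 5 was thus the lowest of its group and replicate 2 the highest, while miSCA7Stuffer replicate 1 lay below the 3 empty capsid libraries.

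**Figure D1:**
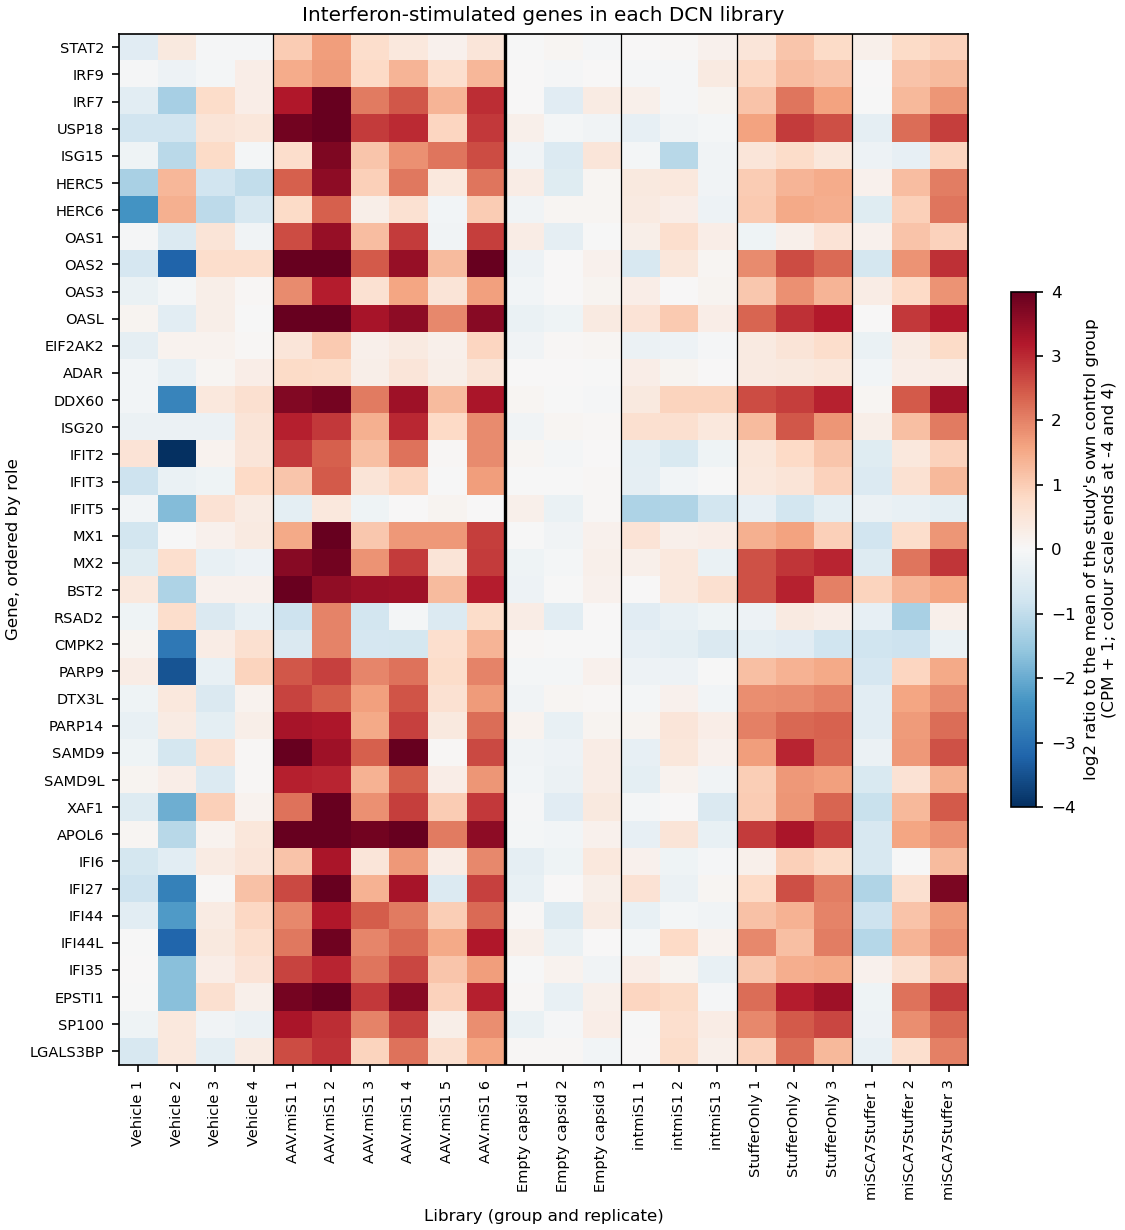
Log2 ratio of each of the 38 genes (rows, ordered by role) to the mean of its study's control group, with 1 CPM added, in each of 22 DCN libraries (columns); red is above and blue below the control mean, and thin lines separate groups. AAV.miS1, StufferOnly and miSCA7Stuffer replicates 2 and 3 are red in most rows, intmiS1 and miSCA7Stuffer replicate 1 are near the controls, and IFIT5, RSAD2 and CMPK2 stay pale in most vector libraries.

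The members that lay above every control library of the same study were counted in each library, beside the share of all genes at 1 CPM or more that did so. The count was 33, 37, 31, 34, 22 and 36 of 38 in AAV.miS1 replicates 1 to 6, which is 57.9% to 97.4% of the members against 19.9% to 36.1% of genes. It was 32, 35 and 34 in the StufferOnly libraries, 84.2% to 92.1% against 36.9% to 42.8% of genes. In miSCA7Stuffer replicate 1 it was 6, or 15.8% against 34.5%, and in replicates 2 and 3 it was 33 and 35, or 86.8% and 92.1% against 40.9% and 39.4%. In intmiS1 it was 12, 19 and 11, or 31.6%, 50% and 28.9% against 35.2%, 33.6% and 24.7% of genes, so replicates 1 and 3 were near the share of all genes. Each empty capsid library, set against the other 2, had 10, 7 and 21 such members. That is 26.3%, 18.4% and 55.3% of the members against 33.0%, 31.9% and 36.3% of genes. The vehicle libraries, each set against the rest of its group, had 2, 11, 10 and 15. These are 5.3%, 28.9%, 26.3% and 39.5% of the members against 24.4%, 30.8%, 20.9% and 26.6% of genes. Reads on vector sequence were 22.2, 548, 107, 101, 24.0 and 28.9 RPM (per 1e6 reads in genes, without TMM; in STAR libraries both numbers are from the unstranded column) in AAV.miS1 replicates 1 to 6, against 0.337 to 11.3 with vehicle, where the highest value is 1 read. Vehicle replicate 3 held 23 vector reads, or 6.71 RPM, beside 71 and 59 reads in AAV.miS1 replicates 5 and 6. The library with the highest vector RPM in that group, replicate 2, also had the highest median ratio, but replicate 1, whose RPM was the lowest and close to that of replicate 5, had the next highest ratio. miSCA7Stuffer replicate 1 held 1.64 vector RPM against 349 and 257 in replicates 2 and 3, and the StufferOnly libraries held 350, 625 and 248. intmiS1 replicates 1 and 2 held 568 and 648, and replicate 3 held 44.6. Vector features were counted differently in the 2 studies and on different references in intmiS1, so vector levels are not comparable across those sets.

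**Figure D2:**
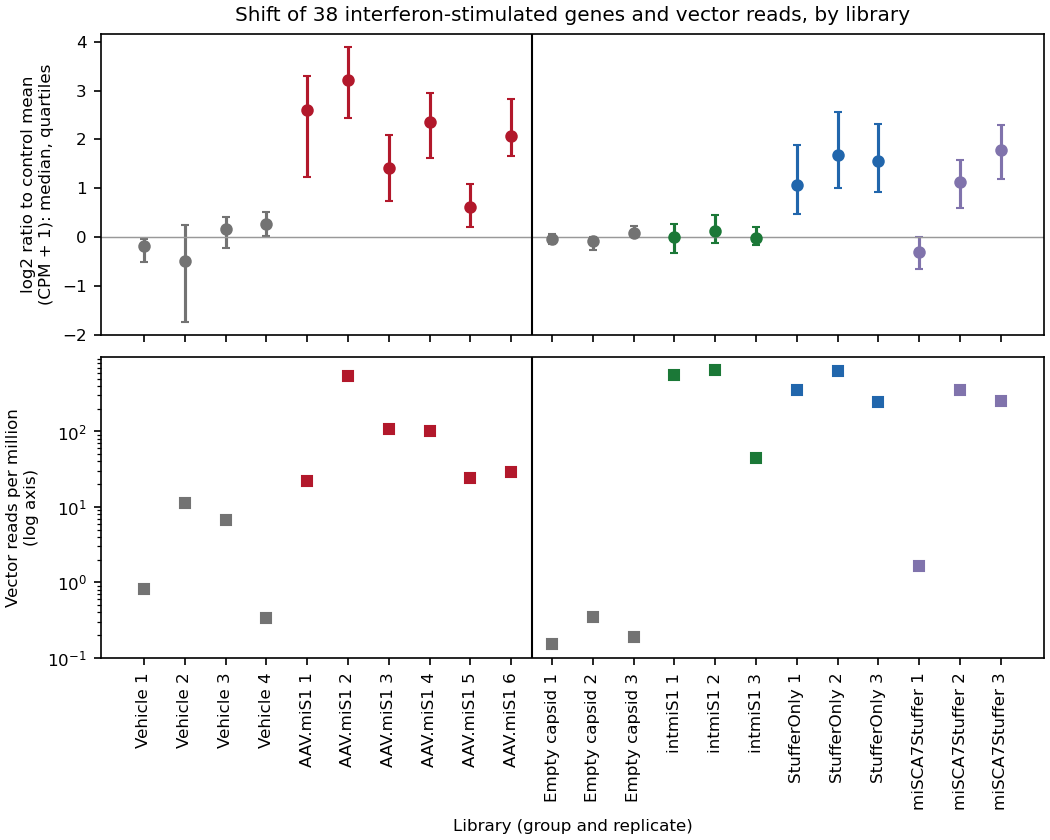
Top, median and quartiles over the 38 genes of the log2 ratio to the control mean (CPM + 1) in each library; bottom, vector RPM on a log axis, with Study 1 left of the line and Study 2 right of it. AAV.miS1 medians run from 0.63 to 3.21 and StufferOnly medians from 1.08 to 1.67, while the 3 intmiS1 libraries, which hold 44.6 to 648 vector RPM, lie between −0.02 and 0.12.

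With AAV.miS1, 26 of the 38 members rose against vehicle and none fell (edgeR quasi-likelihood test, Benjamini-Hochberg adjusted p below 0.05 over 13383 genes). Over all genes tested 8.29% rose and 0.389% fell. Without the low-count filter 26 members also rose, beside 1087 of 24004 genes. OAS1 and ISG20, both called, had 6 and 2 reads in the vehicle libraries together and passed the filter through the AAV.miS1 libraries. Without AAV.miS1 replicate 1, 2, 4 or 6 they did not pass it, and 36 members were tested. The median log2 fold change of the members was 2.59, against 0.02 over all genes tested, and 37 of 38 values were above 0, from −0.14 for IFIT5 to 5.17 for OASL. At an unadjusted p below 0.05, 35 members were higher, and DESeq2 called 31 members higher and 0 lower, against 12.3% and 1.05% of all genes. Every AAV.miS1 library was above every vehicle library for 20 members and below for 0, against 7.47% and 2.88% of all genes, and above for 26, against 11.1%, when the shallow vehicle replicate 2 was left out. Calls fell across all genes when some libraries were left out: without vehicle replicate 1, 3 or 4 no member rose, where 1, 2 and 3 of all genes tested rose, 11 rose without vehicle replicate 2, where 366 genes did, and 16 rose without AAV.miS1 replicate 4, where 460 did. The members' median stayed between 2.14 and 2.71 over all 10 libraries left out in turn. With the unmapped-read set as a covariate 4 members and 181 genes rose and the members' median was 2.19. Among the 5 libraries over 15% alone 1 of 34 members tested and 90 genes rose, with a members' median of 1.40 and 33 values above 0. DESeq2 with the same covariate called 26 members, beside 953 genes that rose and 49 that fell. Within the set over 15%, both AAV.miS1 libraries exceeded each of the 3 vehicle libraries for 22 members, against 13.4% of all genes, and within the set under 15% the 4 AAV.miS1 libraries lay above the single vehicle library for 35, against 34.3%.

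StufferOnly, whose label names filler sequence alone, gave a similar list of higher members. Against empty capsid 17 of 38 rose and none fell by edgeR, beside 12.6% and 4.24% of the 20882 genes tested. The median log2 fold change was 1.64 against 0.02 over all genes, from −0.60 for CMPK2 to 4.69 for OASL. At an unadjusted p below 0.05, 30 members were higher and 2 lower, and DESeq2 called 27 higher and 2 lower, beside 16.2% and 9.28% of all genes. The 3 StufferOnly libraries lay above the 3 empty capsid libraries for 32 members and below them for 2, against 26.8% and 22.2% of all genes. Here too the calls fell over all genes when libraries were left out. Without empty capsid replicate 1, 2 or 3 no member rose, where 1, 2 and 23 of all genes tested rose, and without StufferOnly replicate 2 or 3, 1 and 2 members rose, where 216 and 853 genes did. The members' median ran from 1.47 to 1.77 over the libraries left out. When only these 2 groups entered the fit 33 members were called (1 of them lower), beside 3879 genes that rose and 2628 that fell.

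The AAV.miS1 and StufferOnly comparisons use different animals and different controls. Of the members called, 16 were called in both, which is 61.5% of the AAV.miS1 calls and 94.1% of the StufferOnly calls, and the StufferOnly call outside the overlap was STAT2. Across the 38 members the fold changes of the 2 comparisons had a Pearson correlation of 0.854 and a Spearman correlation of 0.813, as a description over genes that are measured in the same libraries and are not independent replicates. The overlap and the correlations were not taken over all genes tested, so they are not shown to be particular to the members. The members called in neither were ADAR, CMPK2, EIF2AK2, HERC6, IFI27, IFI6, IFIT2, IFIT3, IFIT5, ISG15 and RSAD2. The AAV.miS1 effect minus the StufferOnly effect, tested in 1 fit of the 22 libraries, passed for 0 members by edgeR, as for 0% of all genes, and for 0 by DESeq2, beside 0.0363% of genes upward and 0.0665% downward. At an unadjusted p below 0.05 it passed by edgeR for 2, OAS1 and HERC5 (difference in log2 fold change 3.19, 95% interval 0.97 to 5.40, and 2.42, 0.43 to 4.41), both higher with AAV.miS1. The HERC5 difference was −0.20 when Study 1 was counted without strand. For OAS1 the StufferOnly libraries held 1.19, 1.81 and 2.58 CPM beside 2.03, 0.941 and 1.43 with empty capsid, so those groups overlapped.

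**Figure D3:**
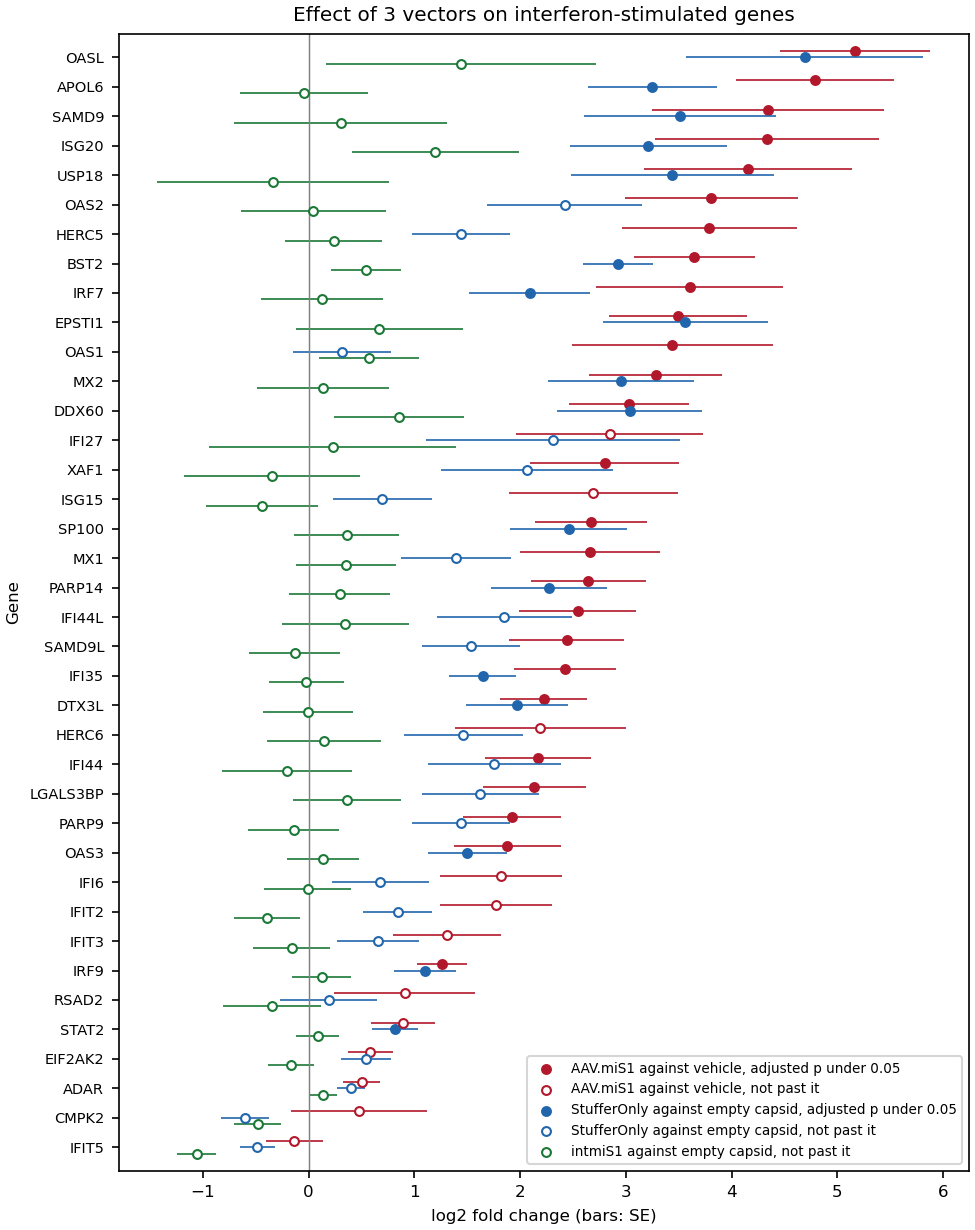
Log2 fold change (points) with its standard error (bars) of the 38 genes in 3 comparisons, ordered by the AAV.miS1 effect; filled points have an edgeR adjusted p under 0.05 and open points do not. AAV.miS1 and StufferOnly points run from below 0 to 5.17 and 4.69 for OASL, and the intmiS1 points lie between −1.06 for IFIT5 and 1.44 for OASL, each open.

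Of the 4 transcription factors and feedback genes, 3 rose with AAV.miS1 and 4 with StufferOnly. IRF9, the subunit that carries ISGF3 to DNA, held 23.4, 20.8, 23.1 and 29.5 CPM in the vehicle libraries and a lowest, median and highest value of 38.8, 62.4 and 81.7 in the 6 AAV.miS1 libraries. The groups did not overlap (log2 fold change 1.26, SE 0.24, edgeR adjusted p = 0.0185). In Study 2 IRF9 held 31.4, 30.1 and 31.6 CPM with empty capsid and 56.0, 73.8 and 70.0 with StufferOnly, again without overlap (1.10, SE 0.29, edgeR adjusted p = 0.0361). Its intmiS1 levels were 30.3, 30.3 and 40.4 CPM, with the third above the controls, and its miSCA7Stuffer levels 31.3, 69.3 and 76.7, with the first within the control range. IRF7, the factor that amplifies interferon production, rose 3.61 with AAV.miS1 and 2.09 with StufferOnly on the log2 scale. USP18, which removes ISG15 from proteins and dampens receptor signalling, rose 4.16 and 3.44. The first of these folds rests on 9 reads in all the vehicle libraries together. STAT2 rose with StufferOnly by 0.82 (adjusted p = 0.0365) and had a log2 fold change of 0.89 with AAV.miS1 (adjusted p = 0.0874).

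Of the ISG15 system, HERC5, the main ligase that attaches ISG15 to proteins, was the member called. HERC5 held 0.866, 10.4, 1.69 and 1.33 CPM with vehicle, where 10.4 is the 1 read of replicate 2, and a lowest, median and highest value of 5.11, 19.0 and 53.1 with AAV.miS1 (log2 fold change 3.79, SE 0.83, edgeR adjusted p = 0.0235). The other 3 vehicle libraries were each lower than the lowest AAV.miS1 value. With StufferOnly it held 12.5, 16.2 and 17.6 CPM against 7.11, 3.80 and 6.11 with empty capsid, which did not overlap and did not pass the adjusted test (1.44, SE 0.46, adjusted p = 0.0648). ISG15 itself had log2 fold changes of 2.69 and 0.70 (adjusted p = 0.0602 and 0.323), and HERC6, a relative of HERC5, 2.19 and 1.46 (0.107 and 0.106). In the strand-specific counts of Study 1, 72.1% of the HERC5 reads and 91.5% of the HERC6 reads lay in the column for the gene's own strand. Reads of the opposite strand cannot be told apart in counts made without strand. With the unstranded column of Study 1 the HERC5 log2 fold change was 1.17 and did not pass (edgeR adjusted p = 0.150), while that of HERC6 was 2.01.

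Among the genes that sense, cut or edit RNA, 6 of 8 rose with AAV.miS1 and 4 of 8 with StufferOnly. OASL, an oligoadenylate synthetase relative that enhances RIG-I signalling, held 0.433, 0, 0.562 and 0.332 CPM with vehicle, which is at most 2 reads a library. With AAV.miS1 its lowest, median and highest levels were 4.08, 15.3 and 32.3 CPM (log2 fold change 5.17, SE 0.71, edgeR adjusted p = 0.0177). The groups did not overlap, and the fold rests on few control reads. In Study 2 OASL held 0.104, 0.188 and 0.730 CPM with empty capsid, and 5.77, 9.20 and 11.0 with StufferOnly (4.69, SE 1.12, adjusted p = 0.0267). Its intmiS1 levels were 0.953, 1.77 and 0.598 CPM and its miSCA7Stuffer levels 0.366, 8.53 and 11.2, so miSCA7Stuffer replicate 1 lay within the control range.

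DDX60, a helicase-like antiviral factor, separated in the same libraries. It held 4.76, 0, 7.31 and 8.62 CPM with vehicle and a lowest, median and highest value of 14.0, 61.0 and 87.1 with AAV.miS1 (log2 fold change 3.03, SE 0.57, edgeR adjusted p = 0.0179). With empty capsid it held 5.81, 5.46 and 5.24 CPM, and with StufferOnly 38.8, 43.3 and 53.6 (3.04, SE 0.69, adjusted p = 0.0227). The fold changes of DDX60 in the 2 studies were nearly equal, and neither pair of groups overlapped. OAS2 and OAS3, synthetases of the oligoadenylates that activate RNase L, rose 3.81 and 1.88 with AAV.miS1. OAS3 rose 1.5 with StufferOnly, and OAS2 had a value of 2.42 there that just missed the threshold (adjusted p = 0.0538). ISG20, an exonuclease called in both comparisons, had 2 reads in all the vehicle libraries together against 112 in the AAV.miS1 libraries, a count ratio after scaling for depth of 25.8 (exact 95% interval 6.97 to 216, counting error only). EIF2AK2, the kinase PKR, and ADAR, the adenosine deaminase acting on double-stranded RNA, had log2 fold changes of 0.58 and 0.50 with AAV.miS1 and 0.54 and 0.40 with StufferOnly, and passed in neither.

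The IFIT genes, which bind foreign RNA ends, did not pass in either comparison. IFIT2 held 26.0, 0, 19.4 and 25.2 CPM with vehicle and 18.4, 75.2 and 131 as the lowest, median and highest of AAV.miS1, where replicate 5 overlapped the vehicle libraries (log2 fold change 1.77, SE 0.53, edgeR adjusted p = 0.0599). With StufferOnly it held 28.6, 36.3 and 45.1 CPM against 21.6, 19.2 and 20.6 (0.84, SE 0.33, adjusted p = 0.112). IFIT3 had log2 fold changes of 1.31 and 0.65 (adjusted p = 0.128 and 0.270).

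IFIT5 was the member with the lowest fold change in the AAV.miS1 and intmiS1 comparisons. It held 34.6, 10.4, 56.2 and 47.1 CPM with vehicle, where 10.4 is the 1 read of replicate 2. The lowest, median and highest levels with AAV.miS1 were 28.0, 37.7 and 50.2 CPM (log2 fold change −0.14, SE 0.27, edgeR adjusted p = 0.760). Apart from that 1 read the lowest vehicle level was 34.6 CPM, and AAV.miS1 replicates 1 and 3, at 28.0 and 33.1, lay below it. In Study 2 it held 49.6, 36.2 and 44.4 CPM with empty capsid, 34.7, 25.5 and 32.8 with StufferOnly, 36.6, 35.0 and 32.6 with miSCA7Stuffer and 17.9, 18.5 and 25.5 with intmiS1. The intmiS1 libraries were below the empty capsid libraries without overlap (−1.06, SE 0.19, unadjusted p = 0.000152, edgeR adjusted p = 0.581), and DESeq2 called this difference. The lowest 2 values are the libraries counted with STAR.

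Both dynamin-like GTPases of the set rose with AAV.miS1. MX2, which blocks nuclear entry of viral genomes, held 8.66, 20.8, 10.1 and 10.9 CPM with vehicle, where 20.8 is 2 reads, and 18.4, 93.4 and 197 as the lowest, median and highest of AAV.miS1 (log2 fold change 3.28, SE 0.63, edgeR adjusted p = 0.0185). In Study 2 it held 8.39, 9.0 and 11.2 CPM with empty capsid and 61.2, 74.7 and 85.9 with StufferOnly (2.95, SE 0.69, adjusted p = 0.0251). The StufferOnly libraries lay far above their controls, while in Study 1 the lowest AAV.miS1 library fell just under the shallow vehicle library. MX1, its relative, rose 2.66 with AAV.miS1 and had a value of 1.39 with StufferOnly (adjusted p = 0.0993).

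BST2, or tetherin, which holds budding virions on the cell surface, had the smallest p of the members in StufferOnly against empty capsid. It held 2.16, 0, 1.69 and 1.66 CPM with vehicle and 4.77, 24.3 and 35.8 as the lowest, median and highest of AAV.miS1 (log2 fold change 3.65, SE 0.57, edgeR adjusted p = 0.0178). In Study 2 it held 2.81, 3.35 and 3.95 CPM with empty capsid and 24.4, 35.7 and 16.8 with StufferOnly (2.92, SE 0.33, adjusted p = 0.0102). Neither pair of groups overlapped. All 3 miSCA7Stuffer libraries, at 7.02, 10.3 and 11.9 CPM, also lay above the empty capsid libraries, including replicate 1, in which most members did not.

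RSAD2 (viperin) and CMPK2 encode enzymes of antiviral nucleotide metabolism and are commonly induced by interferon, and they are described further because they did not follow the other members, a choice made after their values were seen. RSAD2 held 5.19, 10.4, 3.66 and 4.64 CPM with vehicle and 2.93, 26.5, 3.20, 5.65, 3.74 and 10.5 in AAV.miS1 replicates 1 to 6 (log2 fold change 0.91, SE 0.67, edgeR adjusted p = 0.376). CMPK2 held 6.93, 0, 7.87 and 10.3 CPM with vehicle and 3.90, 27.8, 3.56, 3.50, 10.6 and 17.7 with AAV.miS1 (0.48, SE 0.65, adjusted p = 0.637). For both genes replicates 2 and 6 were the highest AAV.miS1 libraries, and replicates 1 and 3, in which MX2, BST2 and APOL6 were above the vehicle libraries, were not raised. In Study 2 CMPK2 was lower with StufferOnly, at 7.89, 7.62 and 5.81 CPM against 11.3, 10.5 and 10.5, without overlap (−0.60, SE 0.22, adjusted p = 0.0974). RSAD2 overlapped between those groups, at 3.82, 6.18 and 5.69 CPM against 5.84, 3.16 and 4.61.

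The genes of ADP-ribosylation rose with AAV.miS1, 3 of 3, and 2 of 3 rose with StufferOnly. DTX3L, a ubiquitin ligase that works as a pair with PARP9, held 27.3, 41.5, 20.2 and 34.1 CPM with vehicle and 47.3, 137 and 207 as the lowest, median and highest of AAV.miS1 (log2 fold change 2.22, SE 0.41, edgeR adjusted p = 0.0185). With empty capsid it held 22, 25.7 and 25.5 CPM, and with StufferOnly 91.7, 93.0 and 102 (1.97, SE 0.48, adjusted p = 0.0279). Neither pair of groups overlapped.

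PARP14, an ADP-ribosyltransferase of macrophage and interferon responses, held 26.4, 41.5, 24.7 and 38.5 CPM with vehicle and 43.6, 191 and 334 as the lowest, median and highest of AAV.miS1 (log2 fold change 2.64, SE 0.54, edgeR adjusted p = 0.0206). In Study 2 it held 29.0, 21.3 and 28.1 CPM with empty capsid and 109, 133 and 137 with StufferOnly (2.27, SE 0.55, adjusted p = 0.0270). The lowest AAV.miS1 library, replicate 5, stood close above the highest vehicle library, and the StufferOnly libraries stood well apart from theirs. PARP9 rose 1.93 with AAV.miS1 and had a value of 1.44 with StufferOnly (adjusted p = 0.0635), and in Study 1 84.5% of its reads lay on its own strand.

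Of 6 members tied to growth arrest and cell death, 4 rose with AAV.miS1 and 2 with StufferOnly. APOL6, an apolipoprotein L family member, held 1.30, 0, 1.41 and 1.99 CPM with vehicle and 8.17, 37.6 and 92.1 as the lowest, median and highest of AAV.miS1 (log2 fold change 4.79, SE 0.74, edgeR adjusted p = 0.0178). In Study 2 it held 3.65, 3.50 and 4.45 CPM with empty capsid and 32.8, 45.3 and 32.3 with StufferOnly (3.25, SE 0.61, adjusted p = 0.0163). The groups did not overlap in either study, and miSCA7Stuffer at 2.11, 13.4 and 16.4 CPM fell between them in replicates 2 and 3. SAMD9, an antiviral restriction factor, rose 4.34 and 3.51, while its paralogue SAMD9L and the XIAP-binding XAF1 rose 2.44 and 2.80 with AAV.miS1 and passed only in that comparison of these 2. The difference between the 2 comparisons did not pass for SAMD9L or XAF1. SAMD9 had 8 reads in all the vehicle libraries together. Its level in AAV.miS1 replicate 5, 0.681 CPM, lay within the vehicle range of 0 to 1.41, so these groups overlapped. IFI6 and IFI27, small mitochondrial proteins, had log2 fold changes of 1.82 and 2.85 with AAV.miS1 (adjusted p = 0.0720 and 0.0632) and 0.68 and 2.31 with StufferOnly (0.324 and 0.212).

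The remaining 6 members rose with AAV.miS1 and 3 of them with StufferOnly. EPSTI1, a regulator of macrophage activation, held 2.16, 0, 3.94 and 2.65 CPM with vehicle and 5.11, 32.6 and 60.6 as the lowest, median and highest of AAV.miS1 (log2 fold change 3.49, SE 0.65, edgeR adjusted p = 0.0180). With empty capsid it held 1.85, 1.28 and 2.22 CPM, and with StufferOnly 12, 23.3 and 28.5 (3.56, SE 0.78, adjusted p = 0.0210). As for DDX60, the groups were apart in both studies and the 2 fold changes were close.

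IFI35, a partner of NMI, held 2.16, 0, 2.81 and 3.65 CPM with vehicle and 5.79, 16.0 and 25 as the lowest, median and highest of AAV.miS1 (log2 fold change 2.42, SE 0.48, edgeR adjusted p = 0.0190). With empty capsid it held 2.79, 3.24 and 2.52 CPM, and with StufferOnly 7.20, 9.47 and 10.1 (1.65, SE 0.32, adjusted p = 0.0165). IFI35 was thus apart from its controls in both studies. SP100, a nuclear body protein, rose 2.67 and 2.46. IFI44, IFI44L and the secreted glycoprotein LGALS3BP rose 2.17, 2.54 and 2.13 with AAV.miS1 and had values of 1.76, 1.85 and 1.62 with StufferOnly that did not pass (adjusted p = 0.0885, 0.0794 and 0.0764).

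**Figure D4:**
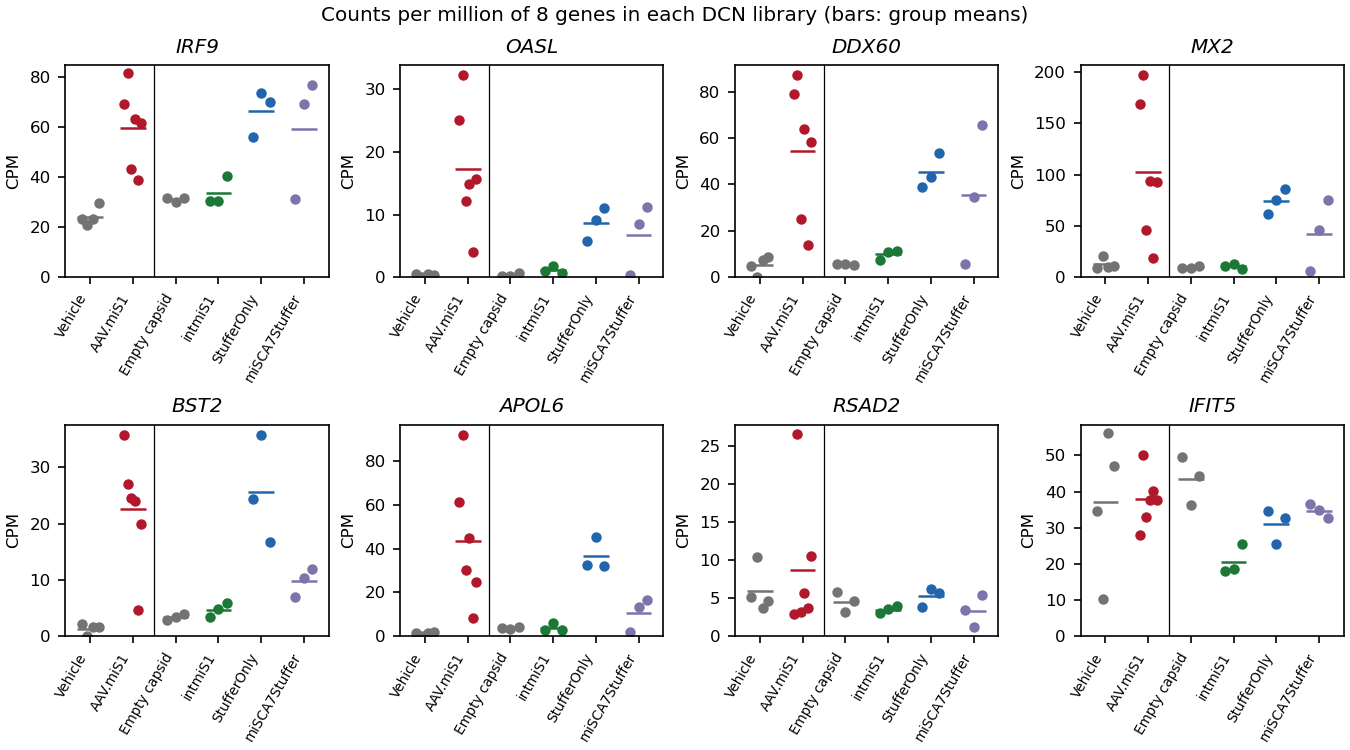
Level of 8 genes in CPM (linear axes from 0) in each DCN library, with group means as bars; Study 1 groups are left of the line in each panel and Study 2 groups right of it, each with its own scaling. In 6 panels AAV.miS1 and StufferOnly points lie mostly above the grey controls, RSAD2 is raised mainly in AAV.miS1 replicate 2 at 26.5 CPM, and IFIT5 is lowest in intmiS1 apart from the shallow vehicle library.

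With miSCA7Stuffer no member passed against empty capsid, where 0.00479% of all genes rose and 0% fell by edgeR. The members' median log2 fold change was 1.17, 35 of 38 values were above 0, 21 were higher and 1 lower at an unadjusted p below 0.05, and DESeq2 called 14 higher and 1 lower, beside 7.24% and 3.95% of all genes. The spread was between animals. OASL was 0.366, 8.53 and 11.2 CPM in replicates 1 to 3, MX2 6.35, 45.8 and 74.8, and PARP14 19.2, 87.2 and 127. Replicate 1 was at or below the controls in these genes and replicates 2 and 3 were above them. Without replicate 1, which also held the fewest vector reads of the group, 32 members rose and none fell, beside 15.7% and 17.2% of the 21539 genes tested, with a median of 1.62. Leaving out either of the others gave 0 members and 0 genes called. All 3 libraries lay above the controls for 6 members and below for 1, against 12.2% and 12.7% of all genes, and replicates 2 and 3 alone for 33 and 2, against 32.9% and 30.4%. Against StufferOnly 0 members passed by edgeR (0% of genes rose and 0.00479% fell) and 3 were lower at an unadjusted p below 0.05, BST2, APOL6 and IFI35, with a median of −0.45. The 3 miSCA7Stuffer libraries lay below the 3 StufferOnly libraries for 3 members, against 8.42% of all genes. DESeq2 called 1 lower, beside 0.781% of all genes. The median was −0.02 without miSCA7Stuffer replicate 1, where edgeR called 1 lower.

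With intmiS1 no member passed against empty capsid by edgeR, where 0% of the 21501 genes tested passed in either direction. At an unadjusted p below 0.05 no member was higher and 1, IFIT5, was lower, and DESeq2 called IFIT5 alone, beside 0.195% of all genes higher and 0.0372% lower. The members' median log2 fold change was 0.13 and 22 of 38 values were above 0. A p that misses the threshold does not show equal levels, so the intervals matter: for 16 members the upper 95% bound was below 1 on the log2 scale, a doubling, and for the others it was higher, up to 4.26 for OASL. APOL6 had an interval of −1.38 to 1.30 and BST2 one of −0.19 to 1.27. Across the 3 libraries, 4 members lay above all empty capsid libraries and 3 below, against 9.51% and 10.7% of all genes. Among them DDX60 held 7.44, 11.0 and 11.1 CPM against 5.81, 5.46 and 5.24 (0.85, SE 0.61, adjusted p = 0.688).

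Against StufferOnly, 19 of 38 members were lower with intmiS1 and none higher by edgeR, beside 9.18% and 3.64% of all genes, with a median log2 fold change of −1.62. DESeq2 called 24 lower, beside 12.4% of all genes, and 31 were lower at an unadjusted p below 0.05. All 3 intmiS1 libraries lay below all 3 StufferOnly libraries for 35 members, against 22.6% of all genes. BST2 was 3.43, 4.92 and 5.88 CPM with intmiS1 and 24.4, 35.7 and 16.8 with StufferOnly (−2.38, SE 0.33, edgeR adjusted p = 0.00732), and APOL6 was 2.86, 5.90 and 2.99 against 32.8, 45.3 and 32.3 (−3.29, SE 0.62, adjusted p = 0.0128). Both genes separated the groups fully. This comparison shares its libraries with the comparisons of each group with empty capsid. The count was 1, 2 and 6 without intmiS1 replicates 1, 2 and 3, where 103, 331 and 2471 of all genes tested were lower, and 2 without StufferOnly replicate 2 or 3, where 515 and 774 were. With the featureCounts library of intmiS1 alone it was 0, where 1 gene was lower. The value without replicate 3 is that of the 2 STAR libraries alone.

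The effects of the 2 forms of the miS1 vector were set against each other, each relative to its own study's control. The AAV.miS1 effect exceeded the intmiS1 effect for 38 of 38 members, with a median difference of 2.27 on the log2 scale, against 0.03 over all genes. It passed the adjusted test for 0 members by edgeR, beside 0.00605% of all genes upward and 0.0121% downward, and for 10 by DESeq2, beside 2.01%. At an unadjusted p below 0.05 it was higher for 32 members. APOL6 had the smallest p (difference 4.75, 95% interval 2.61 to 6.90, edgeR adjusted p = 0.106), followed by BST2 (3.07, 1.67 to 4.47, adjusted p = 0.106). When AAV.miS1 replicate 5, whose shift was the smallest of its group, was left out, 11 members passed, beside 353 genes upward, and without intmiS1 replicate 3, 2 did, beside 747. The control (vehicle or empty capsid) and the counting program also differ between the studies and cannot be told apart from the vector in this difference.

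The interferon pathway around the members was read from a list of 92 symbols, 79 of them with a row. With AAV.miS1 35 of the 67 tested rose and none fell, with a median of 1.73, and with StufferOnly 44 of 75 rose and none fell, with a median of 1.28. Over all genes tested 8.29% and 12.6% rose, which also stands beside the counts by class below. Of all genes, 1, 2 and 3 rose without vehicle replicate 1, 3 or 4, and 1, 2 and 23 without empty capsid replicate 1, 2 or 3. The pathway calls thus also depend on these control libraries. With miSCA7Stuffer and with intmiS1 0 of 75 passed by edgeR, with medians of 0.69 and 0.12.

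The interferons themselves were near the limit of counting. IFNB1 was at 0 in every Study 1 library, which at these depths is no evidence of absence, and 0 of the 6 ligands with a row were testable there. In Study 2 IFNB1 held 0.130, 0 and 0.0664 CPM with empty capsid, 0.388, 0.464 and 0.186 with StufferOnly, 0.122, 0.849 and 0.366 with miSCA7Stuffer and 0, 0 and 0.126 with intmiS1. These are 7, 29, 36 and 4 reads in all, and StufferOnly against empty capsid did not pass (log2 fold change 2.14, edgeR adjusted p = 0.14). IFNG, the type II interferon of T and natural killer cells, had no read in the vehicle, empty capsid and intmiS1 libraries, 19 reads over the AAV.miS1 libraries, 26 over StufferOnly and 9 over miSCA7Stuffer, and was too low to test.

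Of the 5 receptor chains 1 rose with AAV.miS1 and 3 with StufferOnly. IFNAR2, the signalling chain of the type I receptor, held 29.4, 41.5, 35.4 and 29.2 CPM with vehicle and 222, 126, 117, 179, 37.4 and 70.2 with AAV.miS1 (log2 fold change 1.95, edgeR adjusted p = 0.026), and rose 1.91 with StufferOnly. IFNGR2 and IFNLR1 rose 0.94 and 4.70 with StufferOnly. IFNAR1 had values of 0.38 and 0.42 and passed in neither. Of the 10 signalling genes 7 and 6 rose, among them IRF8, a factor of the myeloid lineage (2.40 and 2.12), and IRF1 (3.16 and 2.66). Among inhibitors SOCS3 rose 4.05 and 4.15 and the phosphatase PTPN6 2.70 and 2.56. The class did not rise as a whole with AAV.miS1. PIAS1, PIAS4, PTPN2 and TRIM24 had values of 0.20, −0.10, 0.79 and 0.10 there and did not pass, and SOCS1 was too low to test. Of the sensors of nucleic acid 6 of 14 and 10 of 15 rose, including STING1 (3.92 and 3.16), the adaptor of DNA sensing, and TLR8 (3.51 and 2.65), an endosomal RNA receptor. Of other interferon-stimulated genes 19 of 32 and 21 of 36 rose, including IFI30, a lysosomal reductase of antigen-presenting cells (5.97 and 5.95), and the T cell attractant CXCL9 (6.56 and 8.22), which had at most 1.69 CPM in any control library.

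Many markers of immune cells moved with the members, but not all. Of the 12 microglia and macrophage markers tested (13 listed) 10 rose with AAV.miS1 and 10 with StufferOnly, and their summed level was 531 to 1049 CPM with vehicle, 903 to 7306 with AAV.miS1, 499 to 604 with empty capsid, 462 to 677 with intmiS1, 2246 to 2603 with StufferOnly, and 437, 1785 and 1606 in miSCA7Stuffer replicates 1 to 3. Over all genes tested 8.29% rose with AAV.miS1 and 12.6% with StufferOnly. P2RY12 and CX3CR1 of this list did not rise with AAV.miS1 (log2 fold change 0.02 and −0.75, edgeR adjusted p = 0.938 and 0.352). TMEM119 of this list was at 0 in the intmiS1 libraries and at most 1.30 CPM elsewhere. Summed T cell markers (9) were 47.7 to 78.8 CPM with vehicle, 62.6 to 748 with AAV.miS1, 10.3 to 66.3 with empty capsid, 31.1 to 53.1 with intmiS1 and 192 to 292 with StufferOnly. For B and plasma cells (7 markers) the sum was 30.3 to 5139 CPM with AAV.miS1 and 2.32 to 187 with vehicle. In Study 2 it was 3.62 to 3.91 CPM with empty capsid, 419 to 1666 with StufferOnly, 3.60, 374 and 703 in miSCA7Stuffer replicates 1 to 3, and 4.20, 183 and 4.34 in intmiS1 replicates 1 to 3, so intmiS1 replicate 2 stood above its controls. That library was also the highest of its group in cytotoxic lymphocyte markers (7), at 10.2 CPM against 1.43 to 1.88 with empty capsid and 11.9 to 35.4 with StufferOnly. Plasmacytoid dendritic cell markers (4) summed to 205 to 270 CPM with vehicle and 200 to 287 with AAV.miS1. Of this list GZMB, also a cytotoxic lymphocyte marker, rose 5.87 with AAV.miS1, and TCF4 had a value of −0.17 that did not pass. SCT was at 0 in the vehicle group alone and was too low to test in Study 1. The defining marker CLEC4C was at 0 in every library, which at these depths is no evidence of absence. The summed neuronal markers (7) ran the other way, at 26.3 CPM in AAV.miS1 replicate 1, 573, 1853, 587, 3901 and 3048 in replicates 2 to 6, and 1952 to 4066 with vehicle. They were 1364 to 2990 CPM with StufferOnly against 3081 to 4455 with empty capsid, 312 and 327 in miSCA7Stuffer replicates 2 and 3 and 3262 in replicate 1, although 0 of 7 passed in the AAV.miS1 or StufferOnly comparison. Oligodendrocyte markers (3) summed to 13500 to 15786 CPM with StufferOnly against 22819 to 34331 with empty capsid, and to 10201 to 24083 with AAV.miS1 against 22147 to 32463 with vehicle, and 0 of 3 passed in either. Endothelial markers (5) summed to 330 to 444 CPM with StufferOnly against 149 to 237, where 2 of 5 rose, and to 257 to 590 with AAV.miS1 against 260 to 339, where 0 did. Astrocyte markers (5) summed to 2389 CPM in AAV.miS1 replicate 1 and up to 25163 in replicate 5, against 12143 to 14623 with vehicle. The markers differed in direction with AAV.miS1. GFAP had a log2 fold change of 0.60, and AQP4, SLC1A2, ALDH1L1 and GJA1 had −0.72, −1.45, −0.71 and −0.72, and none passed. In Study 2 they summed to 10473 to 11041 CPM with empty capsid, 5931 to 12903 with StufferOnly and 7573 to 10602 with intmiS1. In miSCA7Stuffer replicates 1 to 3 they summed to 8967, 2768 and 5874 CPM. AAV.miS1 replicate 5, with the smallest member shift, was also the lowest of its group in the microglia and T cell sums and the highest in the neuronal and astrocyte sums. The part of these cell types in the members' rise was not tested, and in bulk tissue more cells of a type and more RNA per cell cannot be told apart.

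**Figure D5:**
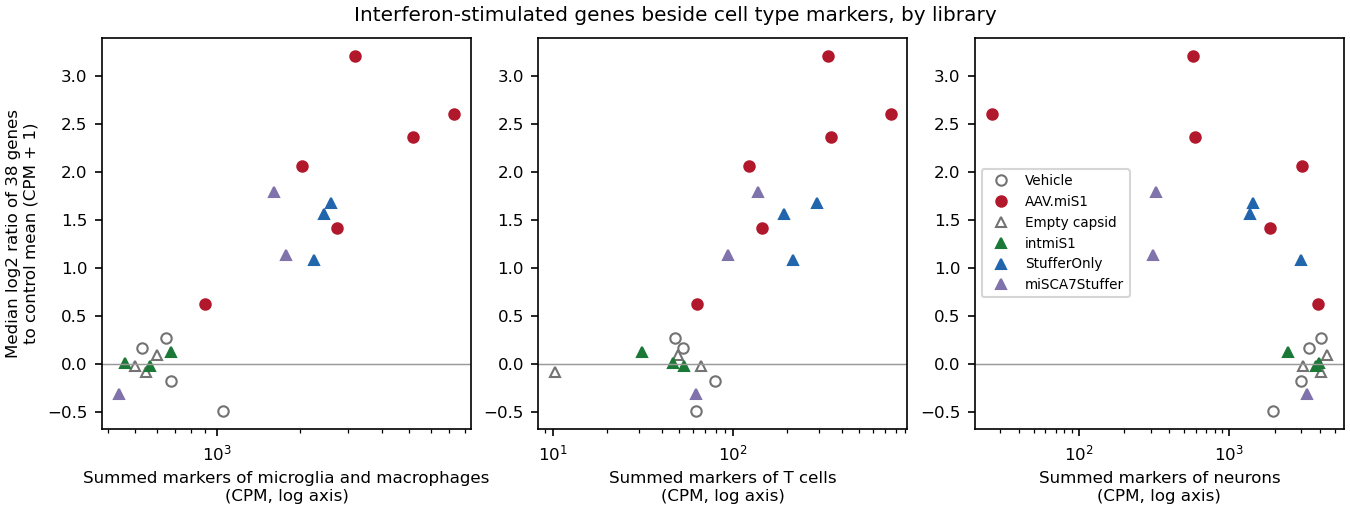
Median log2 ratio of the 38 genes to the control mean (CPM + 1) against the summed CPM of markers of microglia and macrophages, T cells and neurons (log axes), with 1 point a library; circles are Study 1, triangles Study 2, and open symbols the controls. Libraries with high member medians lie at high microglia and T cell sums, up to 7306 and 748 CPM, in those panels intmiS1 and miSCA7Stuffer replicate 1 lie near the controls, and the neuronal sums fall as low as 26.3 CPM.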

How the data were processed

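Total RNA was depleted of ribosomal RNA and made into directional libraries, per the labels' protocols. The authors deposited read counts per gene; reads were aligned with STAR 2.6.0c, per the submitters' processing notes, which also name DESeq2. The 12 STAR tables hold 1 unstranded and 2 stranded columns, and the 10 featureCounts tables hold a single count column, per the file headers. The reverse-strand column was used for Study 1 and the unstranded column (column 2) for 2 intmiS1 libraries; no source used here gives the strand setting of featureCounts. Symbols were paired with 24009 of 34847 identifiers. Rows naming no gene and vector features stayed out of the tests.

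Tests used edgeR 4.0.16 (quasi-likelihood, TMM, filterByExpr with minimum count 10, prior count 0.125) in R 4.3.3, with Benjamini-Hochberg adjustment over all genes of a fit at 0.05, and DESeq2 1.42.0 as an alternative. Study 1 was fitted alone, empty capsid, StufferOnly and miSCA7Stuffer together (9 featureCounts libraries), the 12 Study 2 libraries for intmiS1, and the 22 libraries for differences of effects. SE was taken from the F statistic. Same-numbered libraries of miSCA7Stuffer and StufferOnly correlated in their deviations from the group means (0.177 to 0.436 in the 3 pairs). Differently numbered libraries of these groups ran from −0.356 to 0.234, the latter for miSCA7Stuffer replicate 2 with StufferOnly replicate 3. Deviations from a group mean are tied to each other within the group, so these values cannot show whether equal numbers share an effect. No label names a shared litter, batch or day. The code was tested on simulated counts. Other settings were another normalization, no filter, the older quasi-likelihood method, other strand columns, a block, and leaving out each library. The members and lists were chosen with earlier results of these data known. Values were printed for the member of each role with the smallest p in AAV.miS1 and in StufferOnly, and others by range or fold. Of the pathway list the ligands, the receptors and up to 4 genes a comparison with the smallest p were to be named; the further ones were chosen after their values were seen, and the result of 1 pathway gene is not reported here.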

Additional observations from a re-analysis of the deposited data

Results flagged for a closer look

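Within the groups of 4 vehicle and 6 AAV.miS1 libraries, 1 library stood far from the rest of its group for 12 of 76 combinations of gene and group. For a single combination chance gives about 1 in 20. The combinations share the same libraries and are not independent, so the count cannot be read against that rate. AAV.miS1 replicate 2 was the high library for 9 genes: IRF7 at 81.1 CPM, HERC5 at 53.1, HERC6 at 61.9, OAS2 at 403, OAS3 at 201, MX1 at 398, RSAD2 at 26.5, XAF1 at 72.8 and IFI6 at 942. The same library held 548 vector RPM, the most of its group. Vehicle replicate 2, with 87741 counts, was the high library for HERC5 at 10.4 CPM and SP100 at 20.8 CPM, which are 1 and 2 reads. Vehicle replicate 4 was the high library for ISG20 at 0.663 CPM, also 2 reads, with 0 in the other 3.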

How the results depend on the processing

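The counts of members called moved with the libraries more than their medians did. Leaving out each library in turn gave 0 to 31 called with AAV.miS1 (26 in all libraries), 0 to 17 with StufferOnly (17), 0 to 32 with miSCA7Stuffer (0), 0 to 1 with intmiS1 (0), 1 to 15 for intmiS1 against StufferOnly (19), 0 to 1 for miSCA7Stuffer against StufferOnly (0), 0 to 11 for the AAV.miS1 effect minus the intmiS1 effect (0) and 0 for that minus the StufferOnly effect. Counts without a control library rest on 2 or 3 controls. DESeq2 called 29 members with StufferOnly, 15 with miSCA7Stuffer, 1 with intmiS1, 1 for miSCA7Stuffer against StufferOnly and 10 for the AAV.miS1 minus intmiS1 difference. With AAV.miS1 the count was 4 with the unmapped-read set as covariate and 1 in the set over 15%. Fits of only the 2 groups compared called 33 with StufferOnly and 30 for intmiS1 against StufferOnly. With only the STAR intmiS1 libraries the counts were 1 against empty capsid, 6 against StufferOnly and 2 for the AAV.miS1 difference, and with only the featureCounts library 0 against StufferOnly.

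Replicate numbers in Study 2 name different animals. With 5 of the 6 pairs of groups same-numbered libraries did not all deviate together. With 3 libraries a group this cannot show whether animals shared a litter, batch or day. The replicate block gave 20 called with StufferOnly, 23 for intmiS1 against StufferOnly and 0 in the other 3 Study 2 comparisons, miSCA7Stuffer against StufferOnly included, and so changed no call there. In Study 1 numbers were given in accession order and no block was fitted.

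In the comparisons of which each member was followed, the sign turned for 8 values when a library was left out, whose log2 fold changes then ran as follows: with AAV.miS1, CMPK2 from −0.059 (without AAV.miS1 replicate 2) to 0.67 and IFIT5 from −0.29 to 0.084 (without vehicle replicate 3); with StufferOnly, OAS1 from −0.015 (without StufferOnly replicate 3, and −0.014 without empty capsid replicate 2) to 0.64 and RSAD2 from −0.12 (without empty capsid replicate 2) to 0.42; with miSCA7Stuffer, ISG15 from −0.37 (without miSCA7Stuffer replicate 3, and −0.049 without empty capsid replicate 2) to 0.69, IFI6 from −0.30 to 0.73 and IFI27 from −0.014 to 3.26 (2.72 in all libraries; both negative without miSCA7Stuffer replicate 3, on which the large IFI27 value thus rests); and for intmiS1 against StufferOnly, CMPK2 from −0.010 (without StufferOnly replicate 3) to 0.22, and −0.029 with the featureCounts library alone. Where only single members were followed, signs near 0 turned more often: 5 of 38 members were above 0 for miSCA7Stuffer against StufferOnly, and 2 to 18 with a library left out, 22 and 21 to 27 with intmiS1, and 36 and 31 to 38 for AAV.miS1 minus StufferOnly. Of the members named there, APOL6 with intmiS1 ran from −0.39 to 0.17 (0.17 with only the STAR libraries, 0.022 by DESeq2), and HERC5 for AAV.miS1 minus StufferOnly was −0.20 on the unstranded column of Study 1. The cause was not tested. Vehicle replicate 2 cannot show levels under 10.4 CPM. The alternatives with DESeq2 and the covariate, and the non-overlap counts on subsets, were chosen after seeing the data.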
